A study of Brassica napus with 3 samples.

Results

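The H3K4me3 library of the control canola line was described through its peak summits, once as listed on a B. rapa reference, a relative of the A subgenome, and once as listed on a B. oleracea reference, a relative of the C subgenome. All summits of both lists were used, 27672 on B. rapa, the A reference, and 36371 on B. oleracea, the C reference, together 64043 of the 136214 summits in the series. Canola (Brassica napus) is an allotetraploid that carries both subgenomes in each nucleus, so both lists describe the same leaf chromatin. The control plants were of the cultivar labelled L. spp. oleifera (Metzg) Sinsk. f. biennis, received no treatment, and gave leaf tissue at an age of 26 days. Chromatin was released with micrococcal nuclease without crosslinking and precipitated with an anti-H3K4me3 antibody. PEG1, an epiline from the same cultivar that is labelled as selected, gave a library made in the same way at the same age, and the series also has a no-antibody control library, whose values were not analysed here. The series was made to compare the mark between PEG1 and the control line. There is 1 library per line, and the number of plants behind it is not stated in these sources.

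Trimethylation of lysine 4 on histone H3 is placed by SET-domain methyltransferases and lies on the first nucleosomes of genes that are being transcribed. In plants it is found at most active genes and is scarce on silenced transposons and in the repeat-rich chromatin around centromeres. The distance from one summit to the next is therefore related to the distance between active gene starts. The C genome of the Brassica group is known to be larger than the A genome and richer in transposons. Gene models on these coordinates were not used here, so no summit was assigned to a gene, the leaf identity of the tissue could not be checked against marker genes, and regions are named by position.

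The 2 references differ in how they are assembled, which bears on every value below. The B. rapa list lies on 11 long pseudochromosomes, whose highest summits lie between 15892422 and 34684027. The B. oleracea list lies on 1244 scaffolds with a median highest summit at 201772, and only 311 of them have a summit beyond 500 kb. These 311 scaffolds hold 67.6% of the B. oleracea summits and 68.05% of the span, the span of a sequence being the position of its highest summit. A scaffold without a summit adds nothing to the span, and sequence beyond the highest summit is not counted. Read depth, the way reads matching both subgenomes were placed, and the settings of peak calling are unstated. Peak names in the B. rapa control list contain the word Test, whereas those of the other 3 lists carry a number and the mark, and whether that list was called with other settings cannot be told from the files. The PEG1 lists, which share 1 naming scheme, were therefore measured in the same way and are given beside the main results.

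H3K4me3 summits were denser on the A reference than on the C reference. The control library had 96.5 summits per Mb over 286.7 Mb of B. rapa span, against 78.99 summits per Mb over 460.5 Mb of B. oleracea span. The ratio of B. rapa to B. oleracea was 1.22 (95% interval 1.20 to 1.24, counting error only). The interval treats summits as independent. In 500 kb windows the variance over the mean was 7.41 on the A reference and 9.08 on the C reference, so the interval is too narrow. In the PEG1 library the densities were 109.8 summits per Mb on the A reference and 87.8 summits per Mb on the C reference, a ratio of 1.25 (1.23 to 1.27). With 1 library per line the difference has no replicate check and no test was made. Both lists of a line come from the same library, and reads of either subgenome may count towards summits on both.

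The density differed less between pseudochromosomes than between scaffolds. On the A reference it was lowest on pseudochromosome 11, at 53.02 summits per Mb, and next lowest on pseudochromosome 4, at 88.5 summits per Mb. Pseudochromosomes 1, 2, 5, 9 and 8 followed with 93.8, 96.05, 96.7, 100.997 and 102.7 summits per Mb. Pseudochromosomes 7, 10 and 6 had 104.7, 106.4 and 108.3 summits per Mb, and pseudochromosome 3 was the densest with 119.7 summits per Mb. Pseudochromosome 11 thus stands apart from the other 10, which together had 101.9 summits per Mb. B. rapa has fewer chromosomes than this reference has pseudochromosomes, and the make-up of pseudochromosome 11 is unstated.

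Among the 311 B. oleracea scaffolds with a summit beyond 500 kb, the density ran between 14.4 and 173.1 summits per Mb with a median of 77.4, and the SD was 16.9 over the 11 pseudochromosomes and 33.6 over these scaffolds. A scaffold is much shorter than a pseudochromosome, and the part of that length in the wider scatter was not tested. In complete 500 kb windows, which have equal length, the SD of summits per window was 18.9 on the A reference and 18.8 on the C reference. Of the 311 scaffolds, 201 (64.6%, 95% Wilson interval 59.2 to 69.7) had a lower density than every one of pseudochromosomes 1 to 10, 69 lay within their range and 41 (13.2%, 9.87 to 17.4) lay above it. The 5 longest scaffolds show both kinds. ERB29322, ERB29323, ERB29325 and ERB29326 had 116.9, 126.7, 140.4 and 118.3 summits per Mb, while ERB29324, the third longest, had 30.99 summits per Mb. On ERB29324 the median distance between neighbours was 14899 bp and 22 of 92 summits were over 20 kb from any other, whereas on ERB29323 the median distance was 5009 bp and 1 of 404 summits was so placed. Scaffolds denser than the average of the densest pseudochromosome were thus present on the C reference beside scaffolds with few summits. These comparisons set short scaffolds against averages over long pseudochromosomes. In 500 kb windows, which have equal length, 60 or more summits were found in 29.1% of windows on the A reference and 17.3% on the C reference.

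**Figure D1:**
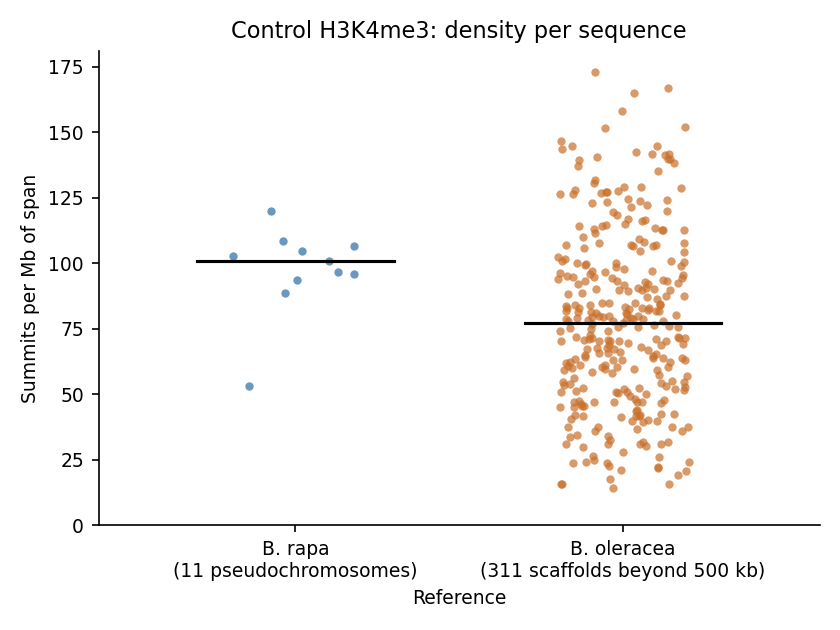
Summits per Mb of span for each sequence with a summit beyond 500 kb in the control library, 11 B. rapa pseudochromosomes on the left and 311 B. oleracea scaffolds on the right, with 1 point per sequence and a black line at the median. The pseudochromosomes lie between 53.02 and 119.7 summits per Mb and the scaffolds between 14.4 and 173.1.

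Above 100 kb, scaffolds of different lengths had similar densities. Scaffolds with a highest summit between 100 and 500 kb had 76.8 summits per Mb, those between 500 and 1000 kb had 78.1, those between 1000 and 2000 kb had 77.5, and the 18 beyond 2000 kb had 82.6. Each of these classes lay below the 88.5 summits per Mb of pseudochromosome 4, the lowest of pseudochromosomes 1 to 10. Shorter scaffolds had higher values. The 270 with a highest summit between 10 and 100 kb had 99.9 summits per Mb on 14.9 Mb. The 150 with a highest summit up to 10 kb gave 422.2 summits per Mb, but hold 169 summits on 0.4003 Mb, and their span is set by the summit itself. Leaving out pseudochromosome 11 changed the ratio of B. rapa to B. oleracea to 1.29 (1.27 to 1.31).

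The lower density on the C reference lay in the long distances between summits and not in the short ones. The 10th percentile of the distance between neighbouring summits was 1306 bp on the A reference and 1301 bp on the C reference, and the 25th percentile was 2852 bp and 2865 bp. The median was 5922 bp on the A reference (95% interval 5832 to 6041) and 6464 bp on the C reference (6346 to 6574), a ratio of 0.92 (0.89 to 0.95). With only summits scoring 10 or more the medians were 9162 bp and 9501 bp, and the interval of their ratio (0.93 to 1.01) includes equality. That interval combines the bounds of both medians and is wider than a 95% interval, so it does not show that the medians are alike. Above the median the lists moved further apart. The 75th percentile was 12451 bp on the A reference and 14895 bp on the C reference, the 90th percentile 23126 bp and 29378 bp, and the 99th percentile 65238 bp and 84080 bp. The ratio of B. rapa to B. oleracea was thus 1.00 at the 10th, 0.84 at the 75th, 0.79 at the 90th and 0.78 at the 99th percentile. Relative to its own median, the 90th percentile was 3.91 times as long on the A reference and 4.54 times as long on the C reference. The CV of the distances was nonetheless close, 1.49 on the A reference and 1.51 on the C reference.

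**Figure D2:**
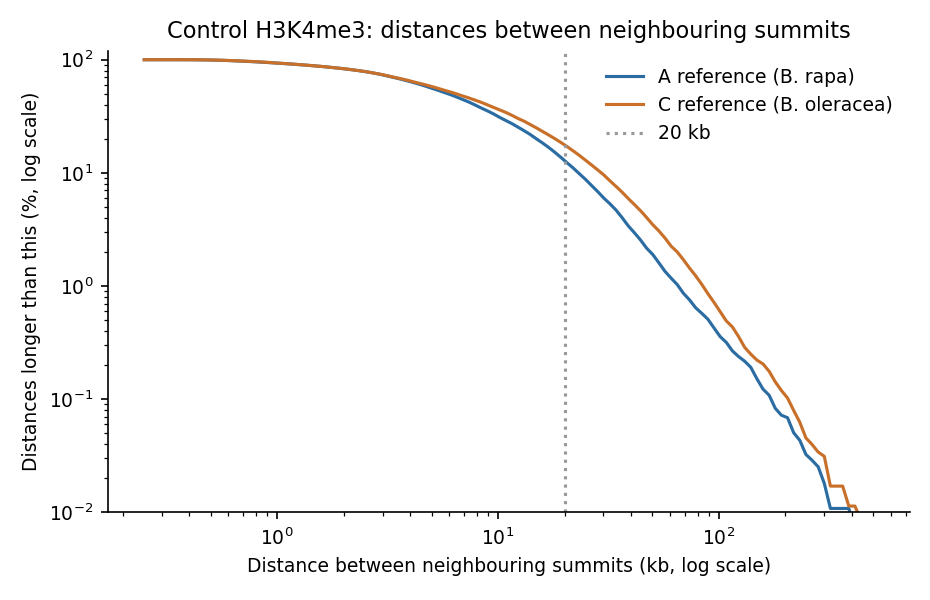
Share of distances between neighbouring control summits that exceed a given length (percent, log scale) against that length (kb, log scale), for 27661 distances on the A reference and 35127 on the C reference. The curves run together at short distances and separate towards 20 kb (dotted line), beyond which 12.8% of the B. rapa and 17.6% of the B. oleracea distances lie.

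Distances of up to 2 kb made up nearly the same share on both references, with intervals that overlap. Those up to 1 kb were 6.71% (6.42 to 7.01) of the distances on the A reference and 6.51% (6.26 to 6.77) on the C reference, and those of 1 to 2 kb were 10.1% (9.70 to 10.4) and 10.2% (9.88 to 10.5). Distances of 2 to 5 kb and of 5 to 10 kb were commoner on the A reference, with 27.2% and 24.6%, than on the C reference, with 25.3% and 21.5%. Distances of 10 to 20 kb were again alike, at 18.7% on the A reference and 18.9% on the C reference. Distances of 20 to 50 kb made up 10.9% (10.6 to 11.3) on the A reference and 14.1% (13.7 to 14.5) on the C reference, and those over 50 kb made up 1.92% (1.76 to 2.08) and 3.52% (3.33 to 3.72). The closest pair of summits was 275 bp apart on the A reference and 288 bp apart on the C reference.

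The 3554 B. rapa distances over 20 kb covered 133.05 Mb, which is 46.5% of the length between neighbouring summits, and the 6187 B. oleracea distances over 20 kb covered 251.5 Mb, which is 57.5%. The distances of up to 20 kb had nearly the same mean on both references, 6357 bp over 24107 distances on the A reference and 6418 bp over 28940 on the C reference, and medians of 4946 bp and 4862 bp. In the PEG1 library these means were 5986 bp on the A reference and 6165 bp on the C reference, and distances over 20 kb covered 40.97% and 53.4% of the length. The same limit removes the longer distances from both lists and holds the remaining ones within a narrow range. Counted per Mb of the length under distances of up to 20 kb, all summits came to 180.6 per Mb on the A reference and 195.8 per Mb on the C reference. Isolated summits add no length to this count. Every stretch without a distance over 20 kb also has more summits than distances. Such stretches, single summits included, numbered 3565 on the A reference and 7431 on the C reference. The count therefore does not compare the spacing within them.

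The 3 longest distances on the A reference lay on pseudochromosome 1 from 3588818 to 4263574 (674756 bp), on pseudochromosome 10 from 12216031 to 12634689 (418658 bp) and on pseudochromosome 9 from 16552690 to 16954708 (402018 bp). The PEG1 list had 0, 0 and 1 summits inside these stretches, leaving out 500 bp at either end. On the C reference the longest lay on scaffolds ERB29324 from 1753487 to 2341662 (588175 bp), ERB29334 from 884376 to 1336378 (452002 bp) and ERB29450 from 411472 to 853537 (442065 bp), and held 0, 0 and 2 PEG1 summits. The longest stretches without a control summit thus held few or no PEG1 summits. Whether they hold weakly marked sites, unresolved sequence or sequence in which reads cannot be placed was not tested. Among all control distances over 20 kb, 61.4% (59.8 to 62.98) on the A reference and 66.7% (65.5 to 67.8) on the C reference held no PEG1 summit. PEG1 had 13.9 summits per Mb inside these stretches on the A reference and 10.6 per Mb on the C reference.

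Isolated summits, those whose nearest summit on the same sequence lay over 20 kb away, took a larger share of the C list. There were 705 among 27672 summits on the A reference, 2.55% (2.37 to 2.74), against 2068 among 36199 on the C reference, 5.71% (5.48 to 5.96). The share on the A reference was lower by 3.17 percentage points (difference -3.17, 95% interval -3.47 to -2.86), and the share on the C reference was 2.24 times as high as that on the A reference. The PEG1 library had 1.86% on the A reference and 4.61% on the C reference. A summit at the end of a sequence has a neighbour on 1 side only, which occurs much more often on scaffolds. The 172 B. oleracea summits that were alone on their scaffold had no distance and were left out. Of the isolated summits, 703 of 705 on the A reference and 1526 of 2068 on the C reference had neighbours on both sides. The scores and PEG1 counterparts of isolated summits given below include those with a neighbour on 1 side only. Among summits with neighbours on both sides the shares were 2.54% on the A reference and 4.48% on the C reference, which narrows the difference to -1.94 points (-2.23 to -1.65). Among summits at or above the median score of their list, where all distances are longer, the shares were 12.2% and 17.9%. Their difference was -5.72 points (-6.50 to -4.94). Here and with neighbours on both sides, the C share was a smaller multiple of the A share than over all summits.

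On the A reference the isolated share ran between 0.949% on pseudochromosome 3 (35 of 3690 summits) and 3.75% on pseudochromosome 4 (79 of 2108) among pseudochromosomes 1 to 10. Pseudochromosome 11 had 8.35% (140 of 1676 summits), above the pooled B. oleracea share. Without it the B. rapa share was 2.17%. Over scaffolds beyond 500 kb the median share was 4.93%. The difference between the references was present at other distances too: 11.6% of B. rapa and 16.9% of B. oleracea summits were over 10 kb from the nearest summit, and 0.264% and 0.743% were over 50 kb away. The farthest summit lay 163322 bp from its nearest neighbour on the A reference and 378778 bp on the C reference.

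Isolated summits were not weak. Scores are the peak caller's significance on a −log10 scale, depend on depth, and are compared within a list only. The median score was 14.4 for isolated and 14.4 for all other summits with a measured distance on the A reference, and 17.7 for isolated and 16.4 for the others on the C reference. The others include summits within 1 kb of a neighbour, with medians of 10.4 on the A reference and 10.8 on the C reference. They also include summits with the nearest neighbour at 2 to 5 kb, with medians of 15.4 and 18.1. The 172 B. oleracea summits alone on their scaffold had a median score of 14.2. In the strongest 25% of their list were 27.5% (24.3 to 30.9) of the isolated and 24.99% (24.5 to 25.5) of the other summits on the A reference, and 29.98% (28.04 to 31.99) and 25.5% (25.03 to 25.96) on the C reference. Among the best-scored 1% of each list, 12 of 276 B. rapa summits were isolated, 4.35% (2.50 to 7.44), and 37 of 363 B. oleracea summits, 10.2% (7.49 to 13.7). The interval contains the share of the whole list on the A reference and lies above it on the C reference.

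The best-scored isolated summits on the A reference lay on pseudochromosome 11 at 18488436 (score 81.03, 20237 bp from its nearest neighbour), on pseudochromosome 7 at 2398139 (80.6, 28117 bp) and on pseudochromosome 11 at 8561761 (77.8, 60356 bp). They ranked 38, 40 and 46 in their list. On the C reference they lay on scaffolds ERB29523 at 213936 (score 119.2, 20700 bp), ERB29408 at 17110 (103.98, 36430 bp) and ERB29588 at 327355 (96.2, 31033 bp), with ranks 2, 9 and 21. Each of these 6 had a PEG1 summit within 17 bp. In the PEG1 list 5 of these 6 were also over 20 kb from any other summit, and the exception was the one on ERB29588, which had another PEG1 summit 955 bp away.

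Isolated control summits had a PEG1 counterpart at least as often as the others. A PEG1 summit lay within 500 bp of 660 of the 705 isolated summits on the A reference, 93.6% (91.6 to 95.2), and of 92.2% (91.9 to 92.5) of the other summits. On the C reference it was 1938 of 2068, 93.7% (92.6 to 94.7), and 90.9% (90.6 to 91.2). Being isolated was less constant than being present: of the PEG1 counterparts, 64.2% (60.5 to 67.8) on the A reference and 70.1% (68.05 to 72.1) on the C reference were themselves over 20 kb from any other PEG1 summit. The PEG1 lists are longer than the control lists, and the part of that in these shares was not tested.

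Spread over windows of 500 kb, summits were fewer per window on the C reference, while their absolute scatter was nearly the same. Complete windows of sequences with a summit beyond 500 kb numbered 567 on the A reference and 504 on the C reference. A B. rapa window held between 3 and 98 summits with a median of 48 and quartiles of 35 and 61, and a B. oleracea window held between 1 and 96 with a median of 37 and quartiles of 24 and 51.3. The mean was 48.2 on the A reference and 38.99 on the C reference, and the SD was 18.9 and 18.8. The CV was therefore lower on the A reference, 0.392 against 0.482 on the C reference, a ratio of 0.81 (0.74 to 0.90, an approximate interval that treats windows as independent). In PEG1 it was 0.381 on the A reference and 0.479 on the C reference. Neighbouring windows are not independent, so the interval is too narrow.

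The distributions overlapped over nearly their whole range, and the shift was in the poorer windows as well as in the richer ones. Windows with fewer than 20 summits made up 7.05% (40 windows) on the A reference and 14.7% (74 windows) on the C reference. Windows with 60 or more made up 29.1% (165 windows) and 17.3% (87 windows). The fullest 25% of windows held 37.3% of the summits in windows on the A reference and 41.6% on the C reference, and the emptiest 25% held 12.4% and 10.6%. The fullest 35.3% of the B. rapa windows and 31.7% of the B. oleracea windows were enough to hold 50% of these summits.

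**Figure D3:**
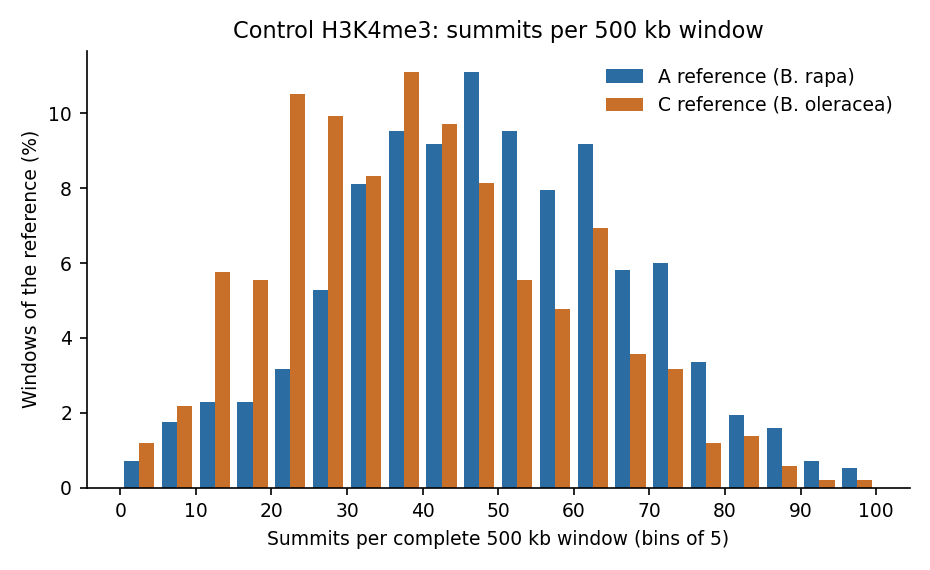
Share of complete 500 kb windows (percent) by the number of control summits they hold, in bins of 5, for 567 B. rapa windows and 504 B. oleracea windows. The B. rapa windows centre on a median of 48 and the B. oleracea windows on a median of 37, and both reach from under 5 to over 95 summits.

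The windows with the most summits on the A reference lay on pseudochromosome 3 from 20500001 to 21000000 (98 summits), pseudochromosome 8 from 2500001 to 3000000 (97) and pseudochromosome 3 from 17500001 to 18000000 (96). PEG1 had 106, 105 and 104 summits there. On the C reference they lay on scaffolds ERB29432 from 500001 to 1000000 (96 summits), ERB29518 from 1 to 500000 (91) and ERB29437 from 1 to 500000 (88), with 103, 101 and 98 in PEG1. The windows with the fewest lay on the A reference at the start of pseudochromosome 2, from 1 to 500000 (3 summits), and on pseudochromosome 11 from 27500001 to 28000000 and from 28000001 to 28500000 (4 each, as in 1 further window), with 4, 5 and 6 summits in PEG1. On the C reference they lay on scaffolds ERB29334 from 1000001 to 1500000 (1 summit), ERB29352 from 500001 to 1000000 and ERB29386 from 500001 to 1000000 (3 each, as in 1 further window), with 1, 5 and 3 in PEG1. The poorest and the richest windows of the control were therefore poor and rich in the other library too.

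Relative to the mean count, windows were most uneven on pseudochromosome 11 among the pseudochromosomes of the A reference. Its 63 windows held between 4 and 70 summits with a median of 23 and a CV of 0.616, whereas the CV on pseudochromosomes 1 to 10 lay between 0.271 on pseudochromosomes 4 and 6 and 0.398 on pseudochromosome 1. Without pseudochromosome 11 the B. rapa CV was 0.342, against 0.392 with it. The ratio of the former to the B. oleracea CV was 0.71 (0.64 to 0.78).

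The order of the references was the same in windows of every size tried. In windows of 20 kb the CV was 0.838 on the A reference and 1.00 on the C reference, in windows of 100 kb 0.526 and 0.628, and in windows of 1000 kb 0.361 and 0.483. A lower mean count raises the CV through counting alone, so the variance over the mean is given as well: it was 1.35 on the A reference and 1.56 on the C reference in windows of 20 kb, 2.67 and 3.07 in windows of 100 kb, and 12.5 and 18.2 in windows of 1000 kb. No summit was found in 21.6% (20.97 to 22.3) of the 20 kb windows on the A reference and in 31.3% (30.6 to 32.1) of those on the C reference. Windows of 1000 kb numbered 279 on the A reference and 136 on the C reference, where only scaffolds with a summit beyond that length were used.

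**Figure D4:**
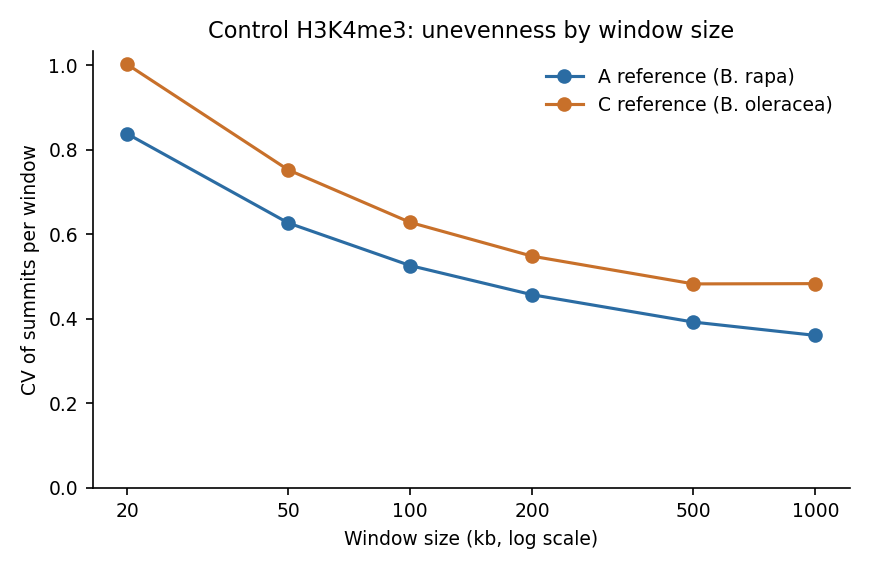
CV of control summits per complete window (SD over mean) against window size (kb, log scale) on both references. The B. oleracea line lies above the B. rapa line at each of the 6 sizes; in windows of 1000 kb the CV is 0.361 on the A reference and 0.483 on the C reference.

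Rich and poor windows came in stretches on both references. Counts of adjacent windows correlated with a Pearson's r of 0.68 and a Spearman's rho of 0.67 over 556 adjacent pairs on the A reference, and with 0.81 and 0.82 over 193 pairs on the C reference. These are descriptions across windows that share a sequence and a library, and most B. oleracea pairs come from short scaffolds. Adjacent windows differed by a median of 9 summits on the A reference and 6 on the C reference.

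Runs of summits with no distance over 20 kb between neighbours had a higher median length on the A reference. Runs of 2 or more held a median of 6 summits over 31.7 kb on the A reference and 4 summits over 22.2 kb on the C reference. The longest run held 124 summits on the A reference and 81 on the C reference, but in PEG1 this order was reversed, with 157 summits on the A reference and 214 on the C reference. The PEG1 medians were 7 and 4 summits. Runs of 20 or more summits numbered 322 on the A reference and 253 on the C reference and took in 39.7% and 20.05% of all summits, a difference of 19.6 points (18.9 to 20.3). Scaffold ends break runs, so both references were also divided at every 500 kb. This does not make the pieces equally long, because only 311 of the 1244 B. oleracea scaffolds have a summit beyond 500 kb. The shares were then 34.4% on the A reference and 17.99% on the C reference. Undivided, such runs took in 50.9% of the PEG1 summits on the A reference and 26.6% on the C reference.

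Within each list the score of a summit varied with the distance to its nearest neighbour mainly at short distances. Summits with a neighbour within 1 kb had a median score of 10.4 on the A reference and 10.8 on the C reference, and those with the nearest neighbour at 1 to 2 kb had 12.99 and 14.3. At 2 to 5 kb the median was 15.4 on the A reference and 18.1 on the C reference. From there to 50 kb it stayed between 14.4 and 15.7 on the A reference and between 16.9 and 18.1 on the C reference. Over 50 kb it was lower, 13.6 for 73 summits on the A reference and 16.01 for 269 on the C reference. Of the summits with a neighbour within 1 kb, 38.96% (37.4 to 40.6) on the A reference and 40.8% (39.4 to 42.3) on the C reference were in the weakest 25% of their list. Among the best-scored 1% only 13 of 276 B. rapa summits and 11 of 363 B. oleracea summits had a neighbour that close, 4.71% (2.77 to 7.89) and 3.03% (1.70 to 5.34), against 13.01% and 12.3% of all summits.

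**Figure D5:**
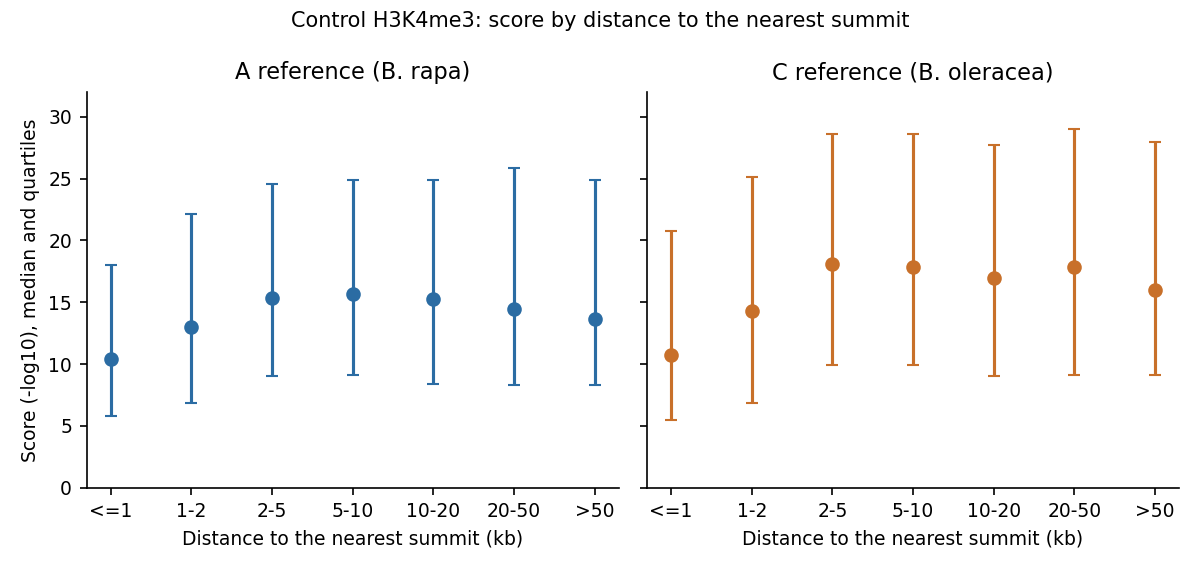
Score of control summits (−log10 scale) by the distance to the nearest summit (kb), B. rapa on the left and B. oleracea on the right, with points at the median and bars from the lower to the upper quartile. On both references the medians are lowest within 1 kb, 10.4 on the A reference and 10.8 on the C reference; from 2 kb on they lie between 13.6 and 15.7 on the A reference and between 16.01 and 18.1 on the C reference.

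Both members of a close pair had lower scores than members of wider pairs. In pairs up to 1 kb apart the stronger summit had a median score of 16.1 and the weaker one 6.44 on the A reference, and 18.2 and 6.11 on the C reference. In pairs 5 to 10 kb apart the medians were 22.1 and 9.70 on the A reference, and 25.6 and 10.8 on the C reference. The score of the stronger summit was a median of 2.21 times that of the weaker one in pairs up to 1 kb apart on the A reference and 2.30 times on the C reference. This ratio was highest in pairs 1 to 2 kb apart, 2.29 times on the A reference and 2.55 times on the C reference, and from 2 to 50 kb it lay between 2.01 and 2.09 times on the A reference and between 2.06 and 2.13 times on the C reference. How the peak caller divides signal between close summits was not tested.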

How the data were processed

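Native ChIP used 1.5 g of leaf powder, 30 U of micrococcal nuclease for 10 minutes and 2.5 ug of antibody, per the labels' protocols. Peaks were called with MACS2 2.0, per the submitters' processing notes. The deposited lists give a summit position, a peak name and a score, which the authors deposited on a −log10 scale. No source says if p-values or q-values lie behind it; no score was whole, and the lowest was just above the −log10 of 0.05. Coordinates are those of the BGI pseudochromosomes V1 of BR5307 (B. rapa) and BGI scaffolds V2 of TO1000 (B. oleracea), per the sequence names; positions are 1-based, and scaffolds are named by the code ending each name. For other upstream steps: not given in the sources used here.

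Distances, nearest neighbours, windows and runs were computed with Python 3.11.15, NumPy 2.4.6, pandas 2.3.3 and SciPy 1.17.1, and drawn with matplotlib 3.10.9. On simulated data 100% of 200 built-in isolated summits were recovered among 27672 on B. rapa and among 36371 on B. oleracea, which checks the computation only. Shares carry 95% Wilson intervals, differences of shares Newcombe intervals, ratios of densities exact conditional intervals, and medians order-statistic intervals. The interval of a ratio of medians combines the bounds of both, which by itself makes it wider than a 95% interval. All cover counting error only. Those over summits or distances treat these as independent. Counts of adjacent windows correlated, which by itself makes such intervals too narrow. Named regions are, per list, the 3 windows with the most and the 3 with the fewest summits, the 3 longest distances and the 3 best-scored isolated summits, besides all pseudochromosomes and the 5 longest scaffolds. Ties went by position. The lists, measures and rules were chosen with earlier results of these data known.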

Additional observations from a re-analysis of the deposited data

How the results depend on the processing

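No paired analysis was possible because each line has 1 library, and for the same reason none could be left out. In 31 alternative values of the 4 comparisons of the references the direction did not turn, and 18 stayed within the interval of the value given above. The others follow as B. rapa over, or minus, B. oleracea, and the cause of a move was not tested except where named. With a score of 10 or more, a limit that is not comparable between the lists, the density ratio was 1.17, the ratio of median distances 0.96 (0.93 to 1.01, which includes equality) and the difference in isolated summits -4.30 points. With summits at or above the median score of their list the difference in isolated summits was -5.72 points. The shares of both lists were higher there, and the C share was a smaller multiple of the A share. Without pseudochromosome 11 the density ratio was 1.29, the isolated difference -3.54 points and the CV ratio 0.71. With the span taken from the lowest to the highest summit, which gives no length to scaffolds with 1 summit, the density ratio was 1.16. The isolated difference was -2.63 points on sequences beyond 500 kb, -1.94 points with neighbours on both sides, -5.34 points at 10 kb and -0.48 points at 50 kb, where the limit itself sets the share. With incomplete windows included, which scaffolds have more often, the CV ratio was 0.58. The difference in runs of 20 or more summits was 16.4 points with sequences divided at 500 kb, an alternative chosen after seeing the data. That division does not make the pieces of both references equally long. Depth is unknown, so which long distances hold weakly marked sites cannot be read from these lists.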

Other observations

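The share of long distances was higher after another long distance than after a shorter one on both references. Sequences of different density are pooled here, and the part of that in the higher share was not tested. After a distance over 20 kb the next one was also over 20 kb in 19.8% (18.5 to 21.1) of 3553 cases on the A reference and in 25.9% (24.8 to 26.98) of 5903 on the C reference. After a shorter distance it was 11.8% (11.4 to 12.2) on the A reference and 15.6% (15.2 to 16.1) on the C reference. In PEG1 the shares after a long distance were 18.1% on the A reference and 23.8% on the C reference, and after a shorter one 9.32% and 13.5%.

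In the poorest 25% of the 500 kb windows, 10.3% (9.36 to 11.4) of the B. rapa summits and 18.96% (17.3 to 20.7) of the B. oleracea summits were isolated, and in the richest 25% it was 0.290% (0.202 to 0.416) and 0.918% (0.733 to 1.15). Fewer summits in a window leave longer distances between them, so a higher isolated share in poor windows follows largely from the grouping. The poorest 25% reached up to 35 summits per window on the A reference and up to 24 on the C reference, so these groups of windows are not matched in density. The median score in the poorest 25% was 15.3 on the A reference and 17.96 on the C reference, and in the richest 25% 14.4 and 16.01.

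Scores took few distinct values: 3146 among 27672 summits on the A reference and 6063 among 36371 on the C reference. The commonest score, 12.9 on the A reference and 12.4 on the C reference, was held by 560 and 468 summits.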
